A study of Drosophila melanogaster with 2 samples.

Results

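The regions described here are weak chromatin immunoprecipitation sequencing (ChIP-seq) regions whose summit, the point of highest signal, lay inside protein-coding sequence. They were chosen by measured values and by position. A pooled region of the dm6 list was kept if it overlapped no peak of the list thresholded by the irreproducible discovery rate (IDR), which scores how well a peak's rank repeats in replicates. Its summit also had to lie in a coding sequence (CDS) of a protein-coding gene and more than 500 bp from every annotated transcription start site (TSS). The rule found 1868 of the 29208 pooled regions, or 8.15% of the 22917 that overlap no IDR peak and are called sub-threshold here. The other 21049 sub-threshold regions and the 5327 IDR peaks are given beside them.

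The study mapped the chromatin sites of fd59A, a forkhead-box transcription factor, in whole Drosophila melanogaster prepupae. The flies were of a transgenic line that stably expresses fd59A with a C-terminal eGFP, a green fluorescent protein tag, and the precipitation used an antibody against GFP. The 2 samples, biological replicates 2 and 3, form 1 group of pooled males and females whose age is labelled 24 day. No control library is among the samples, and signal from the tag and signal from other sources cannot be told apart. The labels do not say which promoter drives the transgene or which cells express it.

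Forkhead proteins bind DNA through a winged-helix domain that prefers an A/T-rich core. Transcription factor binding that controls genes is best known at promoters and in noncoding enhancers, although coding exons can also hold enhancers. Drosophila coding sequence is richer in G and C than introns and intergenic DNA, and runs of the codon CAG encode the polyglutamine stretches of many fly regulators. A list made as input for an IDR analysis is deliberately long, so its lower part holds regions at which signal and background are hard to separate.

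The summit base with 50 bases to each side is shown for a few regions, to set the base composition and motifs discussed here beside real sequence. Each is from the dm6 genome sequence of RefSeq and is printed 5′ to 3′ on the coding strand. Capitals mark the forkhead core (GTAAACA or ATAAACA on either strand) and the CAG pair (CAGCAG on either strand). Snx27 and CG42748 held 2 of the strongest regions whose whole window is coding and lies in no untranslated region, the first matched in both replicates and the second only in replicate 2. Pka-C3, chosen after values were seen, held such a region with a forkhead core and a match in both replicates. Dyro and CG9663 held strong regions with a CAG pair, and Pvf3 a strong region matched only in replicate 3. CG5895 held a coding IDR peak.
Snx27 (chrX:5737205-5737305, minus strand): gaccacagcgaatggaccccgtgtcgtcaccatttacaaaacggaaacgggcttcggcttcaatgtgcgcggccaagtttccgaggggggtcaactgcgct
CG42748 (chr2L:22145872-22145972, plus strand): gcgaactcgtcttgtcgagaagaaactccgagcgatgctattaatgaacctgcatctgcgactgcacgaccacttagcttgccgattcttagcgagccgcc
Pka-C3 (chr3L:15928113-15928213, minus strand): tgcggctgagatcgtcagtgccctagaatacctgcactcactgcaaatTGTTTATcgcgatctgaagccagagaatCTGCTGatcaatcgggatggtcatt
Dyro (chr3L:11289214-11289314, minus strand): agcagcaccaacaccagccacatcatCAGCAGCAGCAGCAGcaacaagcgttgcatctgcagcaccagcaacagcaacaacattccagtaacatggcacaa
CG9663 (chr2L:3301191-3301291, minus strand): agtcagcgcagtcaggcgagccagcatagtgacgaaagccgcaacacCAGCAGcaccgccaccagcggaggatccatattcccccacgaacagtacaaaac
Pvf3 (chr2L:7155650-7155750, minus strand): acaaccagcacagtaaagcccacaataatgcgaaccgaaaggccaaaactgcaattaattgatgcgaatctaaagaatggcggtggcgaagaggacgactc
CG5895 (chr3L:16037021-16037121, plus strand): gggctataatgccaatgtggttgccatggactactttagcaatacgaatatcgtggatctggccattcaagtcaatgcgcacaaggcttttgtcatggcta
The windows of Snx27 and CG9663 each held 58.4% G and C, and that of Pvf3 held 46.5%. In the Dyro window the CAG run reads as glutamine codons in the host's reading frame, and in the CG9663 window the CAG pair falls in the frame that reads AGC, a serine codon. In the Pka-C3 window the forkhead core is on the other strand and appears as its reverse complement, TGTTTAT, and the CTGCTG there is likewise a CAG pair of the other strand, read as leucine codons.

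All 1868 regions were 424 bp wide. The signal is the authors' own score, on a scale that is not given in the sources used here, and ranks regions within a list; values of different lists are not on a known common scale. It ran from 29.2 to 103.9 with a median of 35.1 in the coding regions, against a median of 40.6 in the other sub-threshold regions and 193 in the IDR peaks. The weakest IDR peak had a signal of 106, so every coding region ranked below the IDR list by construction, the best at 5434 and the median at 21577 of 29208. The deposited −log10 q value, higher for smaller q, had a median of 0.0877 in the coding regions. It was 0.181 in the other sub-threshold regions and 3.93 in the IDR peaks. For coding regions, strong and strongest refer to pooled signal within this sub-threshold set. Of the summits, 1493 lay in no untranslated region and in no intron of any coding transcript, whereas 119 also lay in an untranslated region of some transcript and 269 in an intron of another transcript. A single summit lay in the CDS of more than 1 gene.

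At the edges of the rule, the coding regions nearest to a TSS were at CG17508, with a summit at 501 bp and a signal of 32.9, and at CG3939, at 503 bp and 38.3. Just outside lay kn, at 500 bp and 44.1, and CG4597, at 499 bp and 30.7. A further 525 coding sub-threshold regions lay at most 500 bp from a TSS. The coding region of lowest signal was at CheB98a (29.2). A further 3 coding pooled regions overlapped an IDR peak without being one, at CG13086, tpr and CG33181. The gene fd59A itself held 0 of the coding regions, with 8 sub-threshold regions of any class within 10000 bp of it.

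Coding regions were unequally supported by the replicates. A summit of replicate 2 lay within 100 bp of 1207 of the 1868 (64.6%, Wilson 95% interval 62.4 to 66.8), where 57.0% of all sub-threshold regions had one. A summit of replicate 3 lay within that distance of 549 (29.4%, 27.4 to 31.5), where 59.6% of all sub-threshold regions had one. Both replicates matched 260 coding regions (13.9%, 12.4 to 15.6), against 30.5% of all sub-threshold regions. Coding regions also had lower pooled signal, and within quintiles of that signal, given below, the shares matched in both lay closer together. Intervals here and elsewhere cover counting error only, and regions are not replicates of a condition. The pooled list was made from the same libraries, so these matches describe the regions and are not independent evidence for them.

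A match in replicate 2 alone was the most common state. It held for 947 coding regions (50.7%), against 24.3% of the other sub-threshold regions. A match in replicate 3 alone held for 289 coding regions (15.5%), against 30.3% of the others. Neither replicate matched 372 coding regions (19.9%), against 13.3% of the others, with overlapping intervals within each signal quintile, as given below. Sub-threshold summits in introns, near start sites and between genes or in noncoding exons had shares close to one another, with 57.3%, 55.6% and 55.1% matched in replicate 2 and 61.9%, 63.3% and 63.5% in replicate 3. Summits in untranslated regions lay between those classes and the coding regions in replicate 3 (50.4%).

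Coding regions were also farther from replicate 3 summits at longer range. The median coding region lay 37.0 bp from a replicate 2 summit and 1206 bp from a replicate 3 summit. There was no summit at all within 1000 bp of 399 coding regions (21.4%) in replicate 2 and of 1000 coding regions (53.5%) in replicate 3. Widening the match to 500 bp gave 74.5% in replicate 2 and 38.7% in replicate 3 for the coding regions, against 70.0% and 75.7% for the other sub-threshold regions. The matched summits were themselves low in their lists. In replicate 2 their signal ran from 18.5 to 53.1 with a median of 25.5 and a median rank of 14930 in the list. In replicate 3 it ran from 14.1 to 69.3 with a median of 18.0 and a median rank of 21066 of 30000.

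The gap between the replicates was seen in 4 of the 5 signal quintiles of the sub-threshold list. In the lowest quintile 47.1% of 575 coding regions matched replicate 2, against 31.6% of the other regions, and 17.6% matched replicate 3, against 36.2%. In the fourth quintile 86.5% of 251 coding regions matched replicate 2, against 68.0% of the others, and 52.6% matched replicate 3, against 75.3%. The strongest quintile held 51 coding regions, 1.11% of its rows, where the lowest held 12.5%. There 86.3% of the coding regions matched replicate 2 (interval 74.3 to 93.2), against 82.7% of the others, and 84.3% matched replicate 3 (72.0 to 91.8), against 89.7%. Both replicates matched 72.5% of these 51, against 73.9% of the others, with overlapping intervals.

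**Figure D1:**
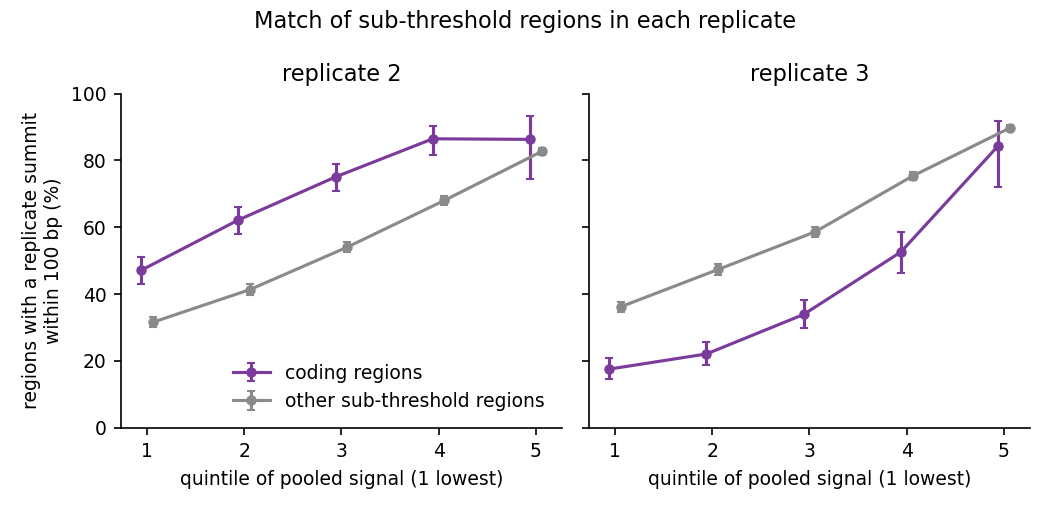
Share of sub-threshold regions with a replicate summit within 100 bp, by quintile of pooled signal (1 lowest), for coding regions (purple) and other sub-threshold regions (grey), in replicate 2 (left) and replicate 3 (right). Bars are Wilson 95% intervals; coding regions lie above the others in replicate 2 and below them in replicate 3 up to the fourth quintile, and the intervals overlap in the strongest one.

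The contrast was also present within ranges of base composition from 50% G and C upwards. Among summits with 55 to 60% G and C within 50 bp, 69.5% of 508 coding regions matched replicate 2, against 58.4% of 1383 other sub-threshold regions. In the same range 29.1% of the coding regions matched replicate 3, against 55.7% of the others. Below 45% G and C the coding regions did not stand above the others in replicate 2 (52.3%, interval 45.3 to 59.3, against 56.0%), and in replicate 3 they stood below them (36.8% against 67.0%).

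The replicate lists themselves differed in the same direction. Applied to the replicate lists, the same rule found 3451 coding rows among the 22018 sub-threshold rows of replicate 2 (15.7%, 15.2 to 16.2) and 1138 among the 23703 of replicate 3 (4.80%, 4.54 to 5.08). Coding sequence more than 500 bp from a TSS, the territory in which a summit could meet the rule, made up 13.9% of the 6 chromosome arms. The coding share thus lay above that territory's share in replicate 2 and below it in replicate 3. Among the strongest 10000 rows, replicate 2 had 335 coding summits and replicate 3 had 30.

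By rank, coding summits were rare at the top of every list. In replicate 2 their share was 0.22% of the strongest 5000 rows and 6.48% of the next 5000, and then 14.4%, 17.6%, 18.9% and 18.5% in the following bands. In replicate 3 the shares in the same order were 0.14%, 0.46%, 2.24%, 4.38%, 6.96% and 8.80%. Replicate 2 stood at or above the territory's 13.9% from rank 10001 on, and replicate 3 in no band. The lists hold no read totals, so the depth of either library is unknown.

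**Figure D2:**
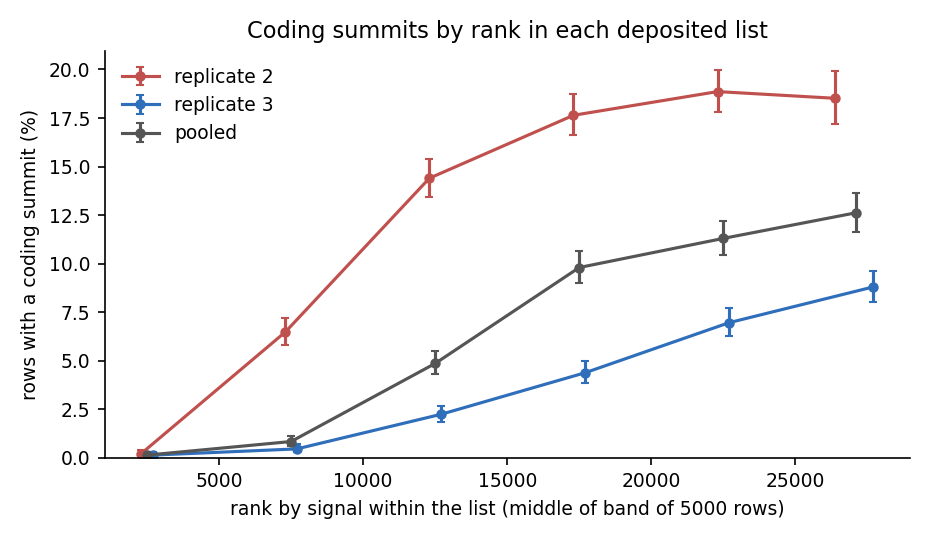
Share of rows with a coding summit more than 500 bp from a TSS, in bands of 5000 rows by signal rank, for replicate 2 (red), replicate 3 (blue) and the pooled list (grey); bars are Wilson 95% intervals. All 3 lists start near 0, replicate 2 reaches 18.9%, replicate 3 reaches 8.80% and the pooled list lies between them.

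Coding rows of replicate 2 seldom had a replicate 3 summit nearby, whereas for coding rows of replicate 3 the gap to other rows was smaller. Of the 3451 in replicate 2, 268 (7.77%, 6.92 to 8.71) had any replicate 3 summit within 100 bp, against 36.1% of the other sub-threshold rows of replicate 2. Of the 1138 in replicate 3, 271 (23.8%, 21.4 to 26.4) had a replicate 2 summit within that distance, against 29.7% of the other rows of replicate 3. The matched coding rows, 268 and 271, were nearly equal in number, so these 2 shares differ through the row counts given above. Among the rows that were also in the strongest 10000 of their list, 53 of 327 coding rows in replicate 2 were matched (16.2%) and 12 of 25 in replicate 3 (48.0%, 30.03 to 66.5), against 59.96% and 56.9% of the other sub-threshold rows.

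Base composition set the coding regions apart from the IDR peaks. The windows of 50 bases to each side of their summits held 54.5% ± 7.13 G and C (SD over regions), against 42.2% ± 9.67 at the other sub-threshold regions and 33.4% at the IDR peaks. Coding territory itself held 52.7% ± 7.69, so most of that distance was that of coding sequence as such. The values hardly depended on the replicate that matched: 54.99% for both, 54.9% for replicate 2 only, 53.9% for replicate 3 only and 53.5% for neither.

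Within coding territory, summits were denser where G and C were more frequent. The 1868 regions had 44.4 summits per Mb of territory in windows below 40% G and C, 98.7 at 50 to 55% and 166 at 65% or more. The coding rows of replicate 2 had 73.7, 194 and 259 per Mb in the same ranges, and those of replicate 3 had 41.1, 58.1 and 88.9. The order was the same in both libraries at different levels.

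**Figure D3:**
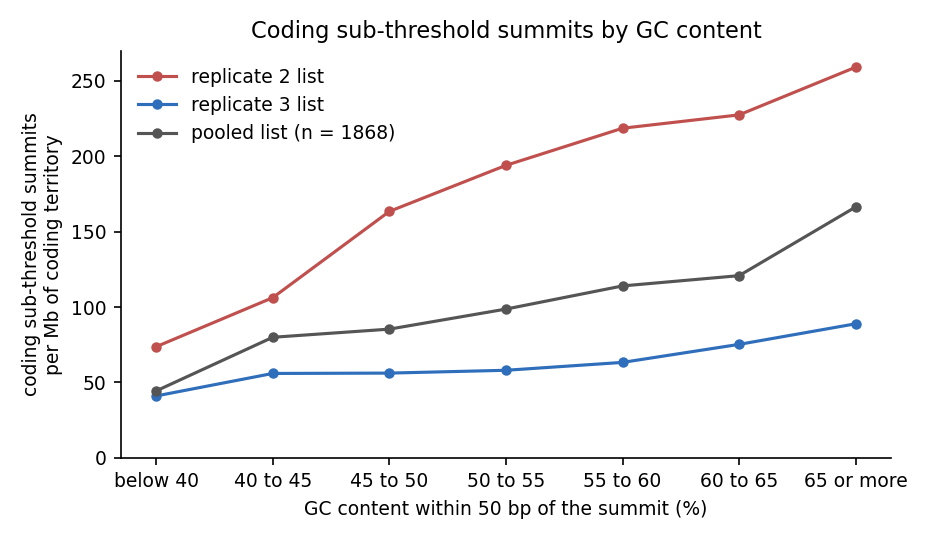
Coding sub-threshold summits per Mb of coding territory (y axis) by GC content within 50 bp (x axis), for the replicate 2 list (red), the replicate 3 list (blue) and the pooled list (grey). Density is lowest below 40% and highest at 65% or more in all 3 lists, with replicate 2 above replicate 3 throughout.

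The summit was only slightly richer in G and C than the coding sequence beside it. In 633 coding regions the summit window and the windows centred 250 bp to each side all lay in CDS. There the summit held 54.4%, against 53.8% in both the upstream and the downstream window. The mean difference was 0.638 percentage points with an SD over regions of 5.79, and the summit was above the mean of its flanks in 336 (53.1%). Over codon positions 1, 2 and 3 the summit windows held 57.8%, 43.0% and 62.5% G and C, against 55.7%, 41.7% and 63.0% in the territory as a whole. The territory covers all genes, not only these 633 regions. In their own flanks the 3 positions held 56.2%, 42.6% and 62.7% upstream, and 56.7%, 42.4% and 62.2% downstream. Position 3, where most silent changes fall, carried no excess over the territory and lay between the flanks. The small excess over the flanks was larger at position 1 than at position 2.

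**Figure D4:**
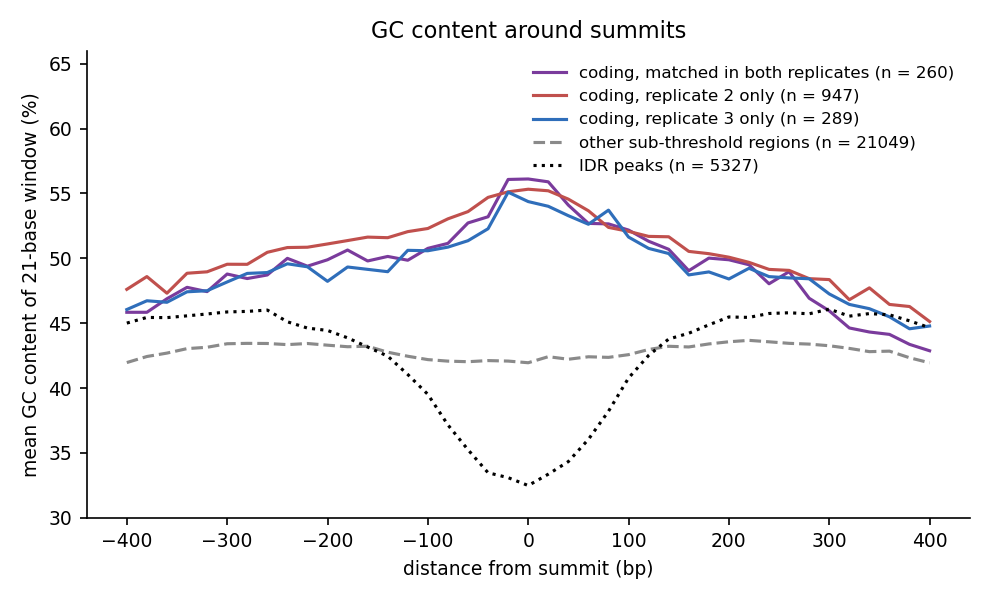
Mean GC content in 21-base windows (y axis) by distance from the summit (x axis), for coding regions matched in both replicates (purple), in replicate 2 only (red) and in replicate 3 only (blue), for other sub-threshold regions (grey, dashed) and for IDR peaks (black, dotted). Coding regions rise to a maximum of 54 to 56% at the summit, where IDR peaks fall to 32.5%; the flanks of coding regions include noncoding sequence, and with 3 wholly coding windows the rise is 0.638 percentage points.

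Motifs were counted on both strands in the same windows, and none of those searched contains another. The forkhead core was in 27 coding regions (1.45%, 0.995 to 2.09), against 6.06% of the other sub-threshold regions and 6.78% of the IDR peaks. The same search over every window of coding territory found it in 1.54%. In the 633 regions with coding flanks it was in 3 summit windows, 8 upstream windows and 5 downstream windows. The coding regions thus held the forkhead core about as often as coding sequence in general. The alternate forkhead site GACGC was in 16.1%, against 15.7% of the territory and 7.78% of the other sub-threshold regions, and the homeodomain site TAATTA was in 0.428%, against 1.04% of the territory.

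The CAG pair was in 386 coding regions (20.7%, 18.9 to 22.6), against 7.93% of the other sub-threshold regions, 4.07% of the IDR peaks and 17.5% of the territory's windows. Beside the summit it was as frequent, with 21.2% at the summit and 20.4% and 19.3% in the coding flanks. Among those matched in replicate 2, 413 regions, it was in 19.6% of summit windows and in 21.1% and 21.8% of the flanks. Among the 137 matched in replicate 3 it was in 29.2% of summit windows (22.2 to 37.3), against 21.2% and 22.6% of the flanks, with overlapping intervals. Summit and flank windows belong to the same regions, so these intervals do not judge the paired difference, which was not tested. Of its sites in the summit windows, 341 (49.0%) were in the frame that encodes glutamine, against 48.1% of all such sites in the territory. Frames that read serine held 16.8% of the sites, against 14.6% in the territory, and the antisense frame that reads leucine held 14.7%, against 20.8%. The E-box CAGCTG was in 9.26% of the coding regions and 7.64% of the territory. The GAGA site GAGAG (12.4% and 12.3%) and CACACA (3.64% and 3.71%) differed by less than the counting interval.

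The X chromosome held fewer coding regions than its coding sequence would take up. It had 209 of the 1868 (11.2%, 9.84 to 12.7) and 17.9% of the coding territory, at 62.8 per Mb. Arms 2L, 2R, 3L and 3R had 103 to 116 per Mb. Chromosome 4 had 5 regions, or 19.6 per Mb. Replicate 2 had 107 coding rows per Mb on the X and 200.0 to 213 on those 4 arms, and replicate 3 had 46.6 on the X and 60.7 to 68.7 on them. The other sub-threshold regions had 16.1% of their number on the X. Territory on the X held 54.8% G and C, and that on the 4 large arms 51.9 to 52.8%. The samples pool males and females, and the part of X dose or base composition in these densities was not tested. On the X, 54.1% of the coding regions matched replicate 2 and 35.9% matched replicate 3, against 65.9% and 28.6% on the other chromosomes.

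Position along the gene varied less than base composition or chromosome. Summits lay a median 1793 bp from the nearest TSS. Density was 132 per Mb in the first 20% of the coding sequence and 91.1 to 99.2 per Mb in the rest of it. The median summit lay 53.2% of the way from start to stop codon, against 55.8% for coding territory. Coding exon parts that held a summit were a median 685 bp long, against 821 bp for the territory, and density was 107 per Mb in exon parts below 200 bp and 118 at 200 to 500 bp, and from there fell with exon length to 80.8 at 2000 to 4000 bp and 46.2 above 4000 bp.

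Coding regions had close neighbours less often than other weak regions. The rule keeps coding summits more than 500 bp from every TSS, whereas the other regions include 4236 near start sites. The part of this difference in the values below was not tested. Another sub-threshold summit lay within 1000 bp of 443 coding regions (23.7%), against 8420 of the 21049 other sub-threshold regions. An IDR summit lay within 1000 bp of 53 (2.84%), against 7.40%, and the median distance to one was 8680 bp, against 8002 bp.

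Of the 20 strongest coding regions, 15 were matched in both replicates, 2 in replicate 2 only, 2 in replicate 3 only and 1 in neither. The 20 were picked by pooled signal, which comes from the same libraries, so frequent matches follow from the choice. In the strongest signal quintile, 73.9% of the other sub-threshold regions were also matched in both. The 20 coding regions lay in 20 genes, 6 of them on the X. Snx27, a sorting nexin of endosomal recycling, led with a pooled signal of 103.9. Its signal was 53.1 in replicate 2, at rank 4751 of that list, and 51.3 in replicate 3, at rank 6301. At par-1, a kinase of cell polarity, the pooled signal was 100.8, with 33.8 in replicate 2 (rank 8794) and 60.9 in replicate 3 (rank 5296). CG42748 had 97.8, with 52.6 in replicate 2 (rank 4820) and no replicate 3 summit nearer than 6016 bp. By rank, Snx27 and CG42748 stood higher in replicate 2 and par-1 stood higher in replicate 3.

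Other strong regions also ranked differently in the libraries. HisRS, histidyl-tRNA synthetase, had a pooled signal of 86.4, with 21.8 in replicate 2 (rank 20590) and 69.3 in replicate 3 (rank 4605), the highest replicate 3 value of any coding region. CG10357 (76.5) had 65.3 in replicate 3 (rank 4932) and no replicate 2 summit nearer than 904 bp. In the opposite direction, Dyro (81.6) had 52.3 in replicate 2 (rank 4847) and 29.4 in replicate 3 (rank 11313). CG4935 (75.3) had 49.1 in replicate 2 (rank 5269) and 22.7 in replicate 3 (rank 15343). At sgg, the glycogen synthase kinase of Wnt signalling, the pooled signal was 80.9, with 41.1 in replicate 2 (rank 6591) and 37.1 in replicate 3 (rank 8845). CG3919 (92.2) had 44.3 in replicate 2 (rank 6029) and 37.4 in replicate 3 (rank 8767).

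A match is set by the 100 bp limit, and a few strong regions lay close to it. At tapas, a Tudor-domain factor of the germline piRNA pathway, replicate 2 had a signal of 52.8, and the nearest replicate 3 summit was 1 bp beyond the limit. At Dph4, of diphthamide synthesis, the pooled signal was 72.2, and the nearest summits were 119 bp away in replicate 2 and 124 bp in replicate 3, so neither counted. At Pvf3, a ligand of the PDGF and VEGF family, the replicate 3 signal was 30.2 and the nearest replicate 2 summit was 155 bp away. The rest of the 20 were l(1)G0196 (83.0), CG43367 (75.9), CG9663 (75.5), GstD9 (74.8), Tpst (74.7), cic (74.2), CG46385 (72.7) and Cyp6v1 (71.7), all matched in both. Of these, cic encodes the repressor Capicua, and GstD9 and Cyp6v1 encode detoxification enzymes. The window at CG46385 was the only one of the 20 with a forkhead core.

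**Figure D5:**
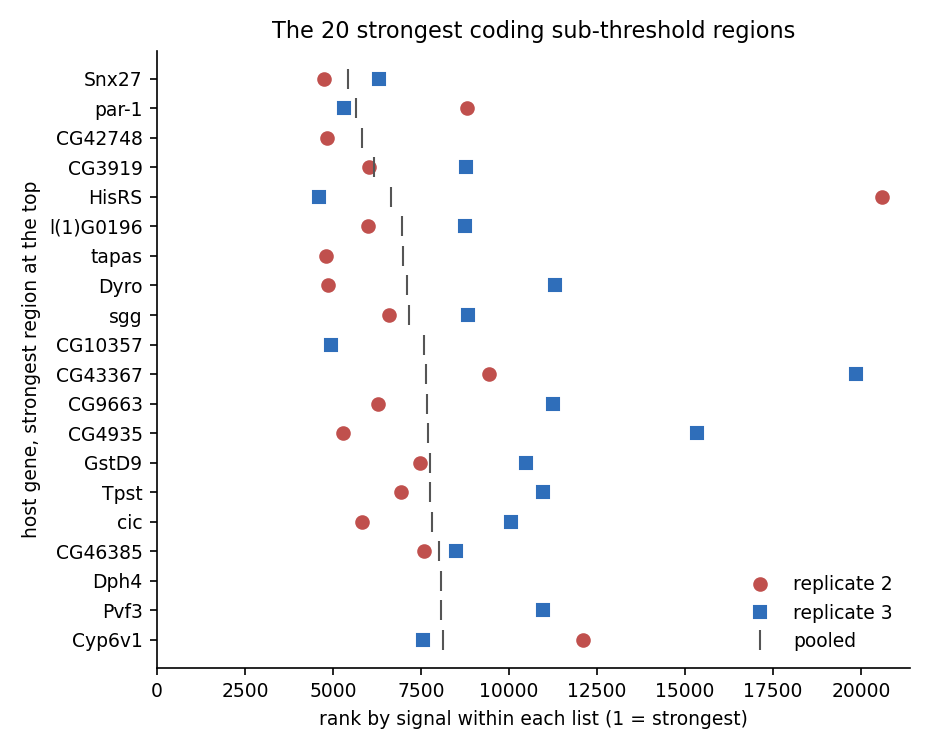
Rank by signal within each list (x axis, 1 is the strongest) of the 20 strongest coding regions by host gene (y axis, strongest at the top), for the matched summit in replicate 2 (red circles) and replicate 3 (blue squares) and for the pooled region (grey bars). A missing symbol means no summit within 100 bp; HisRS is at rank 20590 in replicate 2 and 4605 in replicate 3, whereas CG4935 is at 5269 in replicate 2 and 15343 in replicate 3.

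Only 7 of the 5327 IDR peaks met the same conditions (0.131%, 0.0637 to 0.271). They lay at otp, a homeodomain factor, with a pooled signal of 346, at Ubr1, a ubiquitin ligase of the N-degron pathway (232), at Pde1c, a cyclic nucleotide phosphodiesterase (207), at CG4456 (195), CG5895 (167) and CG1632 (134), and at klar (116), which positions nuclei and organelles. A match in both replicates was present for 5 of the 7. At otp the rank was 2238 in replicate 2 and 823 in replicate 3, and at Ubr1 it was 3282 in replicate 2 and 1679 in replicate 3. The order was the other way at Pde1c, at rank 1927 in replicate 2 and 3533 in replicate 3, and at CG4456, at 2116 in replicate 2 and 3364 in replicate 3. CG5895 was matched in replicate 2 only, with the nearest replicate 3 summit 112 bp away, just beyond the limit. The peak at klar was matched in replicate 3 only, with no replicate 2 summit nearer than 1882 bp. None of the 7 held the forkhead core, and klar was the one with a CAG pair.

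The coding regions were spread over many genes. They had 1586 host genes, which is 11.4% of 13945 protein-coding genes and 12.8% of the 12397 with any coding territory. The same rule on a single list gave 989 hosts in replicate 3 and 2693 in replicate 2. Of the 1586, 1348 hosted 1 region and 33 hosted 3 or more. The share of genes that were hosts followed the length of their territory, at 2.97% below 500 bp, 14.6% at 1000 to 2000 bp and 46.6% above 8000 bp. Per Mb the order was the opposite, at 121 below 500 bp and 56.0 above 8000 bp.

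The gene with the most coding regions was grn, which encodes a GATA-family transcription factor. It held 5 in 2136 bp of coding sequence, with pooled signals of 38.1 to 51.4, all 5 matched in replicate 3 and 3 in replicate 2. A further 10 genes held 4 each, of which the 9 with the highest pooled signal are Dyro, CG16974, osp, dpy, 5-HT2A, SNF4Agamma, Ack, stan and Msp300. In dpy, which encodes a giant protein of the apical extracellular matrix, and in Msp300, a nesprin of muscle nuclei, the coding sequence was 68847 and 40620 bp long. In Dyro it was 1707 bp, and its 4 regions had pooled signals of 37.8 to 81.6, all matched in replicate 2 and 3 of them in replicate 3. At stan, an atypical cadherin of planar polarity, and at SNF4Agamma, a subunit of AMP-activated kinase, no region was matched in replicate 3, and 4 and 3 were matched in replicate 2. At 5-HT2A, a serotonin receptor, the balance was the other way, with 3 matched in replicate 3 and 1 in replicate 2.

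Host genes more often held an IDR peak than genes in general, and they were also longer. An IDR summit lay in the body of 388 hosts (24.5%), against 12.5% of all genes with coding territory, and the median span was 5462 bp for hosts and 2258 bp for the other genes. Among genes spanning less than 2000 bp, 1.17% of 257 hosts had an IDR summit, against 1.41% of 4806 other genes. Among genes spanning 2000 to 5000 bp, 4.26% of 493 hosts had an IDR summit, against 6.83% of 3381 other genes. Among genes of 5000 to 20000 bp it was 28.7% of 495, against 26.3% of 1958, and above 20000 bp it was 65.1% of 341, against 52.3% of 666.

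Families of genes were read against the 12.8% of genes and the 100.4 summits per Mb of coding territory over all genes. Counts per list are small, so the values per Mb carry wide counting error. Developmental regulators were hosts in 4 of 8 Hox genes, 4 of 17 forkhead genes, 7 of 24 ecdysone response genes, 3 of 18 Notch pathway genes and 7 of 31 Wnt, Hedgehog and Dpp pathway genes. Their densities were 315, 155, 116, 110 and 103 per Mb in that order, from 4, 4, 8, 5 and 8 regions. The Hox regions were weak, with a median signal of 30.4, and rich in G and C (64.6%). The strongest was at Ubx (31.8), a homeotic factor of the thorax and abdomen, followed by abd-A (30.5) and pb (30.2). The Ubx and pb regions matched replicate 3 only and that of abd-A matched neither. Among forkhead genes, the strongest were at croc (48.2, replicate 3 only), CHES-1-like (42.1, replicate 2 only) and bin (36.6, replicate 2 only). Of the ecdysone genes, Hr38 (42.5), br (41.3) and ImpE2 (38.5) led, and br, the Broad transcription factor of metamorphosis, was matched in both replicates. In the signalling lists lqf (45.2), Su(dx) (35.2) and Delta (32.4), and Wnt6 (45.1) and shn (38.5 and 35.5), had the strongest regions.

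Lists of structural genes and of channel and synapse genes had host shares above 12.8%, but many of these genes have long coding sequences, and host shares rose with length. Per Mb, only the cadherin list below lay above the 100.4 of all genes. Cadherin, protocadherin and planar polarity genes were hosts in 11 of 20 (140.1 per Mb), led by Cad96Ca (43.6), stan (39.8) and Vang (39.7), each matched in replicate 2 only. Of their 17 regions, 14 matched replicate 2 and 3 matched replicate 3. Sarcomere and muscle attachment genes were hosts in 13 of 26, with 23 regions at 94.3 per Mb, led by TpnC73F (63.8), Tm2 (42.2) and Tm1 (41.9), which encode a troponin C and both tropomyosins. Basement membrane and collagen genes were hosts in 5 of 12 (86.6 per Mb), with Mp (43.1), wb (39.7) and trol (36.7). Apical matrix and mucin genes were hosts in 9 of 32 (65.4 per Mb), with nompA (53.7), dpy (43.1) and nyo (40.1). Voltage-gated channel and synapse genes were hosts in 8 of 25 (88.7 per Mb), with Dscam2 (44.7) and Dscam1 (43.3 and 39.1).

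Chromatin and transcription genes differed among themselves. Polycomb, Trithorax and chromatin genes were hosts in 7 of 27 (89.5 per Mb), and their strongest regions were at Trl (54.2), which encodes GAGA factor, osa (54.1) and Psc (53.8). Transcription factors with glutamine-rich coding repeats were hosts in 9 of 26, at 84.4 per Mb, led by opa (57.5), osa and kis (48.7). RNA polymerase II and elongation genes were hosts in 1 of 16 (Spt5, 32.9, 1 region in 0.0333 Mb), histone variant and linker genes in 1 of 6 (His2Av, 41.0, 539 per Mb from that 1 region), and dosage compensation genes in 0 of 5.

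The remaining families were hosts in shares of genes from 0 to 16.7%. Cytosolic ribosomal protein genes were hosts in 2 of 88, of which 56 have any coding territory, led by RpL19 (45.8), at 128 per Mb. Translation elongation and initiation genes were hosts in 0 of 15. Heat shock genes were hosts in 3 of 18 (147 per Mb), at Hsc70-4 (31.1), Hsf (31.0) and Hsc70-3 (29.7). Cuticle protein genes of the Cpr family were hosts in 3 of 70, of which 60 have any coding territory (98.2 per Mb). Their regions were at Cpr50Ca (37.6), Cpr92F (31.1) and Cpr49Ah (29.3). Chemoreceptor genes of the odorant, gustatory and ionotropic families were hosts in 16 of 179, at 94.99 per Mb and a mean of 46.2% G and C, led by Ir67c (53.8), Ir21a (50.8) and Or22a (40.3). The lists differ in coding length, from a median of 466.5 bp for ribosomal protein genes to 5592 bp for basement membrane genes, and the part of length in their counts was not tested beyond the values per Mb.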

How the data were processed

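The authors deposited, for each biological replicate and for the pooled alignments, a dm6 list of peaks and background regions made as input for IDR, and a pooled list of IDR peaks. The signal of each region is the authors' deposited score, and the deposited −log10 q value was read only to describe the lists. For the peak caller, its version and the IDR threshold, nothing is given in the sources used here. Read depth is unknown, and the lists for the other genome build were not used.

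Summits were placed on Ensembl release 115 gene models, with transposable element records left out of the start sites, and sequence was read from the RefSeq dm6 genome. A replicate match is a summit within 100 bp. Windows held the summit and 50 bases to each side. Coding territory is every CDS base more than 500 bp from a TSS, on the 6 arms. Shares have Wilson 95% intervals. With 1 group of 2 replicates no test between conditions was possible, and no p-value is given. The members, the 20 gene lists and the tests were chosen with earlier results of these data known. Genes named are those of the 20 strongest regions, the 10 hosts with most regions, all coding IDR peaks, the 3 strongest regions of each list, the edges of the rule and fd59A. Of 334 symbols listed, 5 matched no gene name, 4 of them synonyms of genes already listed. Dl and Nelf-B were matched through their current names after the values were seen. A gene that the rule would name is not reported here. The classification and matching steps were tested on planted data. Alternatives varied match distance, TSS distance, window, overlap with other annotation, distance from IDR peaks and signal, and took each replicate's list alone. Analyses used Python 3.11.15, numpy 2.4.6, pandas 2.3.3, scipy 1.17.1 and matplotlib 3.10.9.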

Additional observations from a re-analysis of the deposited data

How the results depend on the processing

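Of 66 values under an alternative, 43 moved by less than the spread used to judge them and 23 moved further. For GC content, both motifs, position and exon length, that spread was the SD of the 2 values from each replicate's list alone. An SD of 2 values is uncertain, so these counts are only a rough guide. A value that moved further can still lie inside its counting interval, as 20.4% for the CAG pair does. The share of coding regions matched in both replicates (13.9%) was 9.90% within 50 bp, 19.3% within 200 bp and 26.0% among the regions of above-median signal, for which it was 18.6% and 34.5% at those distances. With each replicate's list taken alone, the number of coding regions ran from 1138 without replicate 2 to 3451 without replicate 3, and that of host genes from 989 to 2693. Over the same settings GC content ran from 53.8% to 54.6%, the forkhead core from 1.39% to 2.02%, the CAG pair from 20.7% to 21.1%, and the median position from 52.7% to 55.6%. Windows of 25 and 100 bases to each side of the summit gave 0.428% and 3.75% for the forkhead core and 10.8% and 34.2% for the CAG pair, as fewer or more bases were searched, and the longer window gave 53.5% GC. The CAG pair was in 22.5% over 1000 bp from every TSS, 19.3% outside untranslated regions and introns, 20.4% over 500 bp from IDR peaks and 20.1% above the median signal, where 847 genes were hosts. The cause was not tested. Added after seeing the data, start sites that include transposable element records gave 1862 regions, and a replicate 3 list cut to the length of the replicate 2 list gave 12.9% matched in both. Unknown depth, the lack of a control library and only 2 replicates limit every value.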
